A study of Mus musculus with 4 samples.

Results

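Pbx2, Pbx3, Pbx4, Meis1 and Meis3 encode TALE cofactors, homeodomain proteins that bind DNA beside other transcription factors. The open chromatin around these 5 genes was examined in facial surface ectoderm of mouse embryos at embryonic day 11.5 (E11.5). A site belonged to a gene when its centre lay within 150 kb of the start of the principal transcript (GENCODE mouse release 21, GRCm38). By this rule 93 of 65467 control peaks and 1 of 3103 AP-2-dependent regions fell around the 5 genes, which are 5 of 21853 protein-coding genes. The windows did not overlap, so no peak was counted for more than 1 of these genes.

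PBX proteins bind DNA weakly alone and are known for pairing with HOX proteins and also with MEIS or PREP proteins. MEIS proteins hold PBX in the nucleus and contact their own short site next to that of PBX, so the composite string TGANTGACA reads as a PBX part followed by a MEIS part. In the cephalic ectoderm, PBX proteins are known as upstream regulators of the Wnt9b and Wnt3 genes, which act with Trp63 in fusion of the facial prominences. AP-2 proteins bind the palindrome GCCNNNGGC and are themselves early regulators of the surface ectoderm.

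ATAC-seq, in which a transposase inserts adapters into nucleosome-free DNA, had been run on 2 control and 2 EDKO libraries, each from ectoderm peeled off the facial prominences. EDKO (ectodermal double knockout) embryos carried Crect with Tfap2a flox/flox and Tfap2b flox/flox, whereas the control littermates were Tfap2a flox/+ and Tfap2b flox/+ without Crect. Crect is a Cre transgene under an intronic enhancer of Tfap2a, so that deletion was directed at the ectoderm layer as a whole and not at 1 part of the face. Control peaks were called on the pooled control libraries. AP-2-dependent regions were called on those libraries with the EDKO libraries as background, and are sites more accessible in control than in EDKO ectoderm. Each list held 1 pooled value per peak, so no error between libraries, no test and no p-value between samples could be given, and the read depth behind a peak is unknown. In bulk tissue, fewer cells with an open site and less opening per cell cannot be told apart. Shares below carry 95% Wilson intervals, which cover counting error only. Strength is given as the −log10 of Genrich's unadjusted p at the summit, and its place in the whole control list as a percentile. A control peak lay over the start of 8 of 8 surface ectoderm markers, at the 70.9th to 96.8th percentile of strength. The same held for 4 of 4 mesenchyme markers (2.09th to 89.5th percentile) and for none of 2 endothelium and 2 blood markers. The part of mesenchymal cells in the sites below was not tested. An AP-2-dependent region lay over an exon of Tfap2a and over an exon of Tfap2b, 1 in each. This served as a check of the labels. Floxed exons are deleted in EDKO ectoderm, so at such an exon lost DNA and lost opening cannot be told apart.

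Sequences with the composite PBX-MEIS string are shown first, since it is the string that PBX and MEIS proteins read together. The whole control peaks in the 5 windows hold 10 matches in 8 peaks, and 7 of the matches are printed: those under a member's start peak, those near a summit and those in the peak with 3 matches. The 3 left out lie in peaks at the starts of Zfp963 and Gmip in the Pbx4 window and in a peak 122 kb downstream of Meis3. All are read from GRCm38 on the plus strand, and capitals mark TGANTGACA or its reverse complement. The first stands upstream of Meis3 at chr7:16174605-16174685, its centre 785 bp before the start site and inside the peak that covers that start. The second lies 345 bp downstream of the Meis1 start site at chr11:19018614-19018634, under the peak over that start. It is shown shorter because it falls in transcribed, untranslated sequence. The other 5 printed matches belong to the windows of Pbx4 and Pbx2, in peaks that are nearer to other genes. Of these, 3 stand in 1 peak upstream of Pbx4, at chr8:69716939-69717019, chr8:69717099-69717179 and chr8:69717176-69717256, 1 stands at the start of Zfp866 (chr8:69774949-69775029) and 1 between Rnf5 and Agpat1 (chr17:34603777-34603857).
Meis3 start peak: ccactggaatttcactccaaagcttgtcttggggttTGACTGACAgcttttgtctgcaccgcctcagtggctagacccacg
Meis1 start peak: tccagcTGTCAATCAcaggcg
Pbx4 window, far upstream, match A: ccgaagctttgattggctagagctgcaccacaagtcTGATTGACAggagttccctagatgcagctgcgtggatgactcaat
Pbx4 window, far upstream, match B: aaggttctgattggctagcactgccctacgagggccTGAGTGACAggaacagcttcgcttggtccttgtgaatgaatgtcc
Pbx4 window, far upstream, match C: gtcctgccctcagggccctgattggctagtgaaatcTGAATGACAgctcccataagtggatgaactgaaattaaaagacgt
Pbx4 window, at Zfp866: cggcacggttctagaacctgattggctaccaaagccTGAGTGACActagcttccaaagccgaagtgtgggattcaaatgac
Pbx2 window, at Rnf5 and Agpat1: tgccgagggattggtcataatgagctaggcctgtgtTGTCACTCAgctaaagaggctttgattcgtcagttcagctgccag

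All 5 genes had a control peak over the start site, whereas 61.4% of all protein-coding genes did. The number of control peaks in the window ran from 8 at Pbx3 through 14 at Pbx2, 19 at Pbx4 and 23 at Meis3 to 29 at Meis1. Over all protein-coding genes the median was 11 peaks, with quartiles of 5 and 19. Pbx3 thus lay below the median gene, with more peaks than 33.4% of genes, and Meis1 above the upper quartile, with more than 91.7%. Pbx2, Pbx4 and Meis3 exceeded 57.9%, 74.3% and 83.0% of genes. These counts carry no error between libraries, so the order of neighbouring genes is a description.

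**Figure D1:**
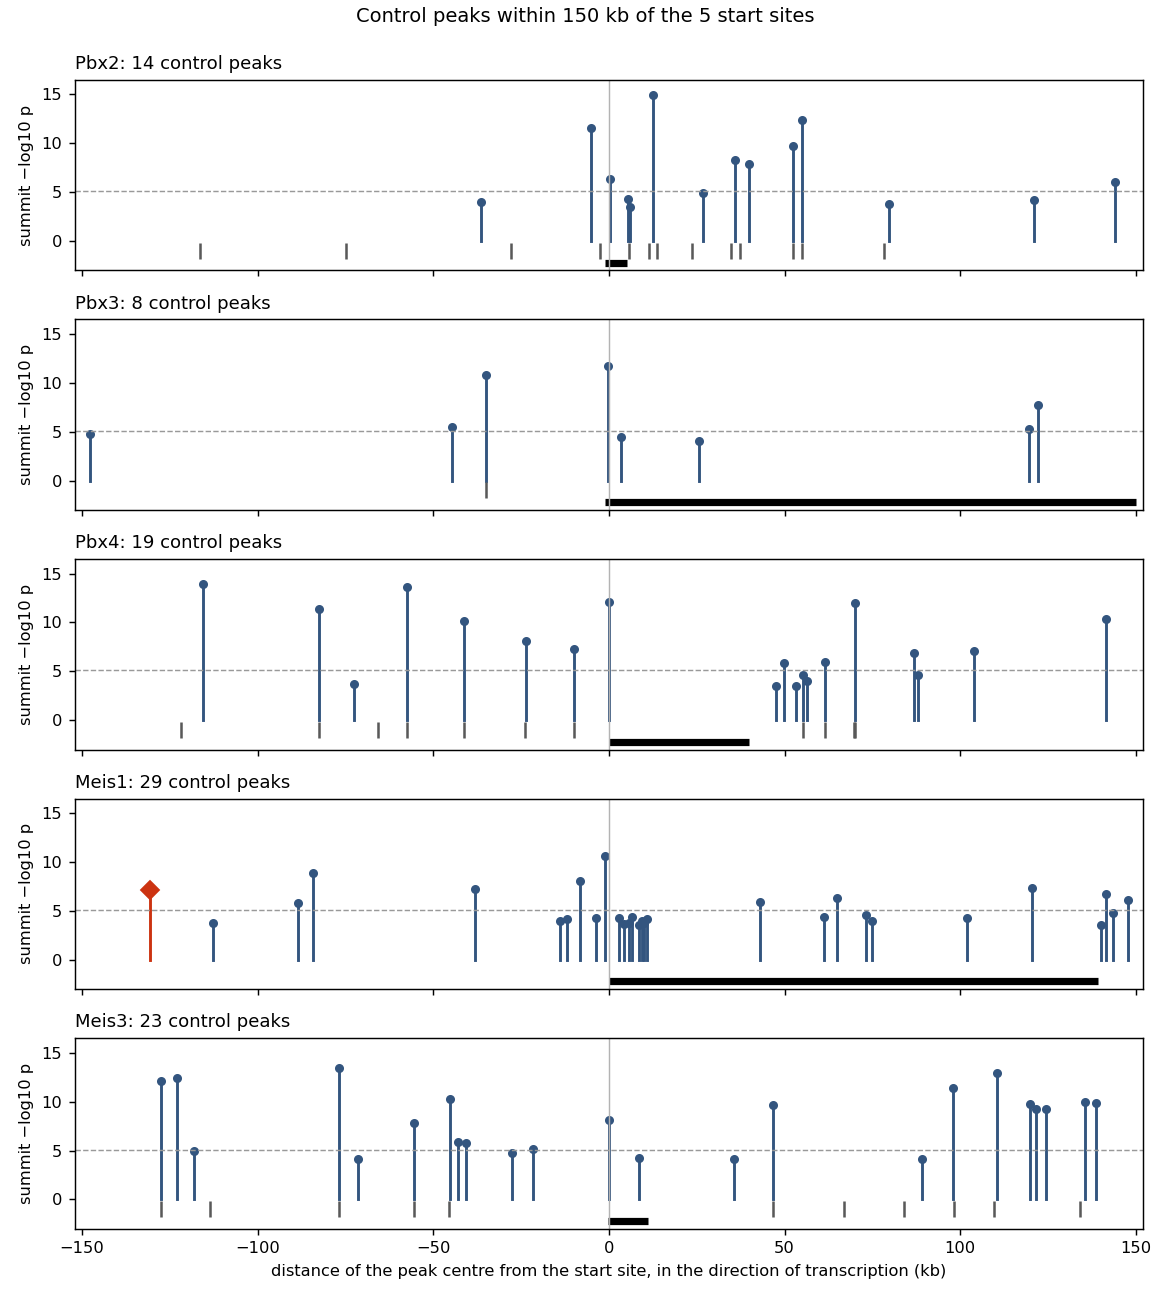
Control peaks in the 5 windows. The horizontal axis gives the distance of the peak centre from the start site in kb, in the direction of transcription; stem height is the summit −log10 p; the red diamond is the peak that overlaps an AP-2-dependent region; grey ticks are the start sites of other protein-coding genes, black bars are the genes themselves and the dashed line is the median of all control peaks (5.10). The Meis1 window holds 29 peaks and no grey tick, and 8 short stems stand side by side just downstream of its start.

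The genes differed in how many neighbours shared the window. No other protein-coding start lay within 150 kb of Meis1, 1 lay there for Pbx3, 11 for Pbx4 and for Meis3, and 13 for Pbx2. All 29 peaks of the Meis1 window were therefore nearest to Meis1 itself. Of the 8 peaks around Pbx3, 5 were nearest to Pbx3. The other windows mostly belonged to neighbours, since Meis3 was the nearest start for 3 of 23 peaks, Pbx2 for 1 of 14 and Pbx4 for 1 of 19. In all, 39 of the 93 peaks were nearest to one of the 5 genes. Among the 1784 genes that, like Meis1, had no other start within 150 kb, the median was 5 peaks, and Meis1 had more than 98.9% of them. The 3136 genes with 10 to 14 other starts had a median of 18 peaks. In that class Pbx2 exceeded 36.9% of genes, Pbx4 53.4% and Meis3 67.5%. Pbx3, in the class with 1 to 4 other starts (8124 genes, median 9), exceeded 41.3%. Set beside genes with similar neighbourhoods, Meis1 was the member far from the middle. Among other TALE genes, Meis2 exceeded 99.3% of its class, Tgif1 98.1% and Tgif2 93.6%. Pknox2, Pknox1 and Mkx exceeded 70.1%, 65.5% and 40.4% of theirs. A high count for the neighbourhood was thus not particular to Meis1.

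**Figure D2:**
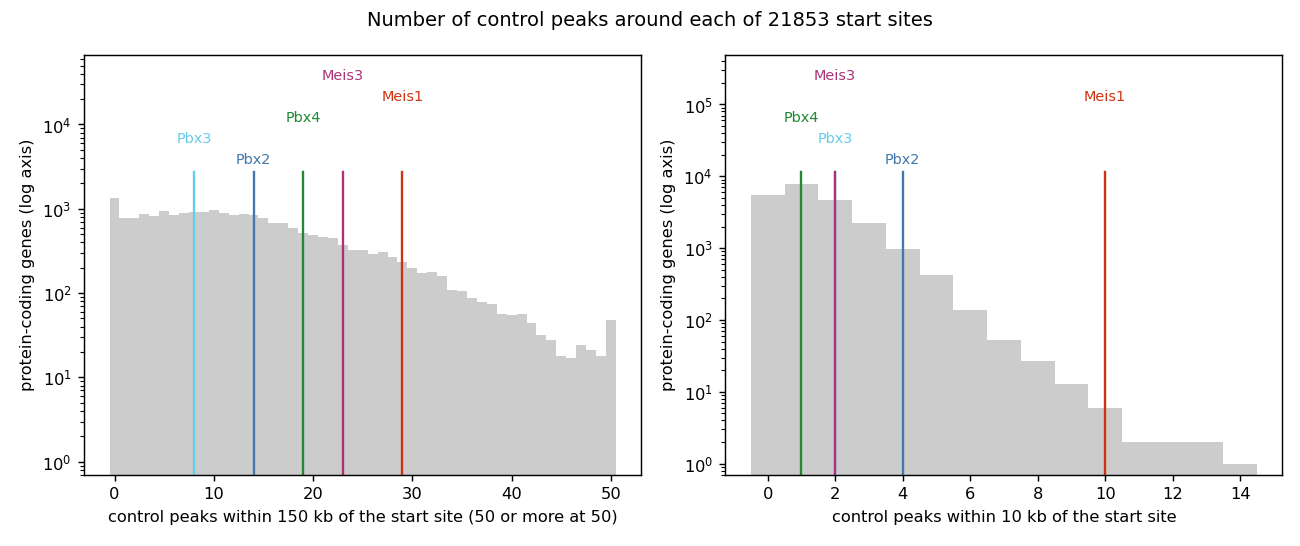
Number of control peaks around each of 21853 start sites, within 150 kb (left) and within 10 kb (right). Grey bars count protein-coding genes on a log axis, and coloured lines mark the 5 genes. Meis1 stands at 29 peaks in the wider window and at 10 in the narrower one, where the median gene has 1.

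Of the 93 summits, 38 lay in introns, 30 between genes, 10 in untranslated exon sequence and 6 in coding exons, and the others inside a gene but outside its principal transcript or in a non-coding gene. More than 5 kb from every protein-coding start were 50 of the 93 peaks (53.8%, interval 43.7 to 63.5%), below the 69.9% of all control peaks. Within 1 kb of a start lay 25 (26.9%, 18.9 to 36.7%), beside 20.2% overall. Peaks covered 30 protein-coding starts in the 5 windows, 27 peaks holding 1 or 2 starts each. In the Meis1 window 25 of 29 peaks lay more than 5 kb from any start, which goes with its lack of any other start. Meis2, a TALE gene that also has no other start in its window, had 29 of 34 peaks that far away. In the Pbx2 window 3 of 14 peaks were that far away, in the Pbx3 window 5 of 8, in the Pbx4 window 8 of 19 and in the Meis3 window 9 of 23.

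The median strength of the 93 peaks was 5.90, with quartiles of 4.23 and 9.65, and 54 of them (58.1%, interval 47.9 to 67.6%) lay above the median of all control peaks, 5.10. The strongest 10% of the whole list held 18 of them (19.4%, interval 12.6 to 28.5%). Peaks more than 5 kb from a start had a median of 4.78, close to the 4.66 of all such peaks. The 43 peaks nearer to a start had a median of 8.27, beside 7.65 overall. By window the median was highest at Meis3 (9.23, range 4.10 to 13.4), followed by Pbx4 (7.07, 3.54 to 13.9), Pbx2 (6.19, 3.46 to 14.9), Pbx3 (5.40, 4.05 to 11.7) and Meis1 (4.38, 3.56 to 10.7). Meis1 was the gene with the most peaks and the lowest window median, and 18 of its 29 peaks lay below the list median. The windows differ in their share of peaks near a start. Among peaks more than 5 kb from any start, the Meis1 median was 4.39 (25 peaks), near the 4.66 of all such peaks. It was 4.18 at Pbx2 (3 peaks), 4.79 at Meis3 (9), 5.30 at Pbx3 (5) and 6.39 at Pbx4 (8).

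**Figure D3:**
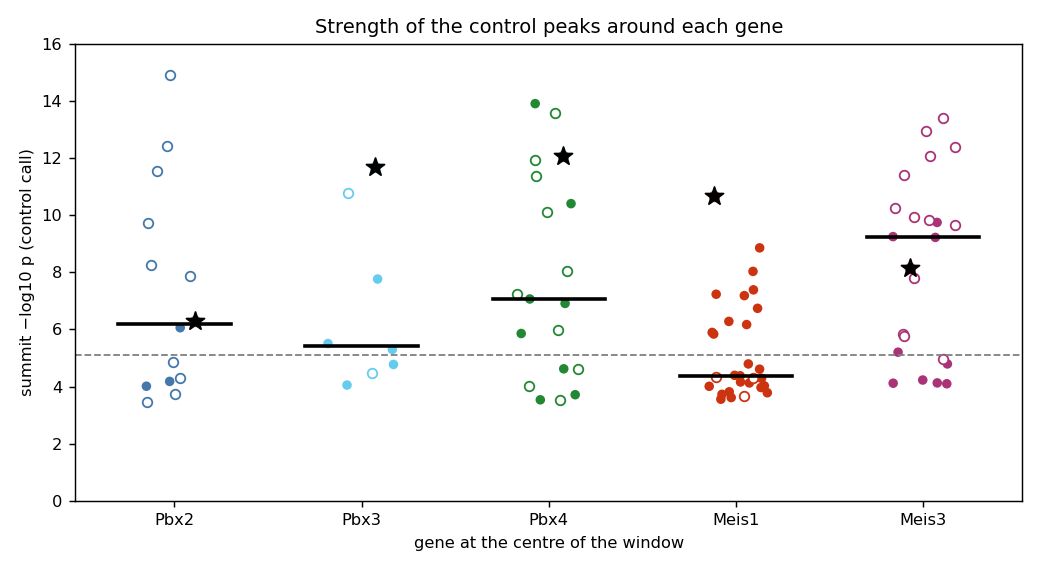
Strength of each control peak as summit −log10 p (vertical axis), grouped by the gene at the centre of the window. Filled points lie more than 5 kb from any protein-coding start and open points nearer; the star is the peak over the gene's own start, the black bar the median of the window and the dashed line the median of all control peaks. The star is the highest point at Pbx3 and Meis1, and most Meis1 points are filled and under the dashed line.

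Pbx2 is a broadly expressed PBX gene in the gene-dense class III region of the major histocompatibility complex. The gene spans chr17:34591266-34597400 on the plus strand (ENSMUSG00000034673.14). Its start peak, chr17:34591147-34594080, was 2934 bp wide with a summit strength of 6.31, at the 66.6th percentile, the lowest percentile among the 5 start peaks. The summit lay in the 5′ untranslated part of exon 1. Within 10 kb of the start there were 4 peaks, more than at 92.5% of all genes, whatever their neighbourhood. Only the start peak was nearest to Pbx2, and the others were nearest to neighbouring genes. The strongest peak of the window was not that of Pbx2 but one at chr17:34602579-34606991, 12.5 kb downstream, with 14.9 (99.7th percentile). That peak covered the starts of Rnf5, a ubiquitin ligase of the endoplasmic reticulum, and Agpat1, an acyltransferase of phospholipid synthesis, and it holds the TGANTGACA match printed last above, 48 bp from its summit. A weaker peak of this window, in C4b at chr17:34736019-34736695, lies in sequence with a median of 2 copies in the assembly, so reads there could have come from either copy.

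Pbx3, a PBX gene with roles in the developing nervous system, spans chr2:34171457-34373142 on the minus strand (ENSMUSG00000038718.15). It had the fewest peaks, 8 in the window. The peak over its start, chr2:34370702-34373839, was 3138 bp wide and the strongest of the window, at 11.7 (94.9th percentile). A further 4 peaks lay in intron 2. They stood 3.47 kb, 25.7 kb, 119.6 kb and 122 kb downstream of the start, with strengths of 4.47, 4.05, 5.30 and 7.77 in that order. The 2 far ones lie less than 3 kb apart and both exceeded the list median, while the 2 near ones did not. Upstream, the 3 remaining peaks were at or in Mapkap1, the only neighbour.

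Pbx4, a PBX gene known mainly for its expression in testis, spans chr8:69832491-69872292 on the plus strand (ENSMUSG00000031860.17). Its start peak, chr8:69831943-69833146, was the strongest of the 5 start peaks at 12.1 (96.0th percentile) although only 1204 bp wide, the narrowest of them. No other control peak lay within 10 kb of the start, and none elsewhere in the 39.8 kb of the gene. The strongest peak of the window stood 116 kb upstream, at chr8:69716345-69717530 between genes, with 13.9 (99.1st percentile), and Zfp869, a zinc finger gene, was the nearest start at 6.21 kb. Here 3 matches to TGANTGACA lie within 1186 bp, although none lies wholly within 100 bp of the summit. In the printed sequences these 3 matches, and the one at Zfp866, each follow the same letters, tgattggcta. They stand in partly alike sequence and cannot be taken as independent. Across all control peaks, 36 of 65298 (0.0551%) held at least 3. This count was looked at after its values were seen. Between it and Pbx4, 3 more peaks hold 1 match each, at the starts of Zfp963 (82.5 kb upstream of Pbx4), Zfp866 (57.6 kb) and Gmip (23.6 kb). The Zfp866 peak, chr8:69774513-69775316 with a strength of 13.6, is the one of these with its match near the summit.

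Meis3, a MEIS gene known from the hindbrain, spans chr7:16175090-16186504 on the plus strand (ENSMUSG00000041420.18). Its start peak, chr7:16174528-16176128, was 1601 bp wide with a strength of 8.14 (80.5th percentile). The only other peak inside the gene was a short one in intron 9, 185 bp wide and 8.45 kb downstream, with 4.23. Of the 23 peaks, 9 covered a start, that of Meis3 included, and all 9 were above the list median. The strongest, chr7:16097754-16099290 with 13.4 (98.5th percentile), covered the start of Napa, which encodes an adaptor that takes SNARE complexes apart, 76.9 kb upstream. Another peak, at chr7:16264318-16264586, is 98.1% repeat-masked and its 31-base words have a median of 590 copies in the assembly, so its position is uncertain. It was weak, at 4.13.

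Meis1, a partner of PBX and HOX proteins that is known from haematopoiesis and limb and eye development, spans chr11:18879817-19018985 on the minus strand (ENSMUSG00000020160.18). Its 29 peaks fell into a strong peak over the start, a dense series just inside the gene, scattered peaks in later introns, a group beyond the 3′ end and 9 further peaks upstream. The start peak, chr11:19018232-19022046, was 3815 bp wide, the widest of the 5 start peaks, with 10.7 (91.7th percentile). Its summit lay 1797 bp upstream of the TGANTGACA match shown above.

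Within 10 kb of the Meis1 start there were 10 peaks, a count reached by 13 of 21853 genes, while the median gene had 1 peak. Together they opened 9.93 kb of the 20 kb, more than at 99.7% of genes, where the median was 1.33 kb. The start peak and a peak 8.22 kb upstream (8.03) were strong. The other 8 of these 10 peaks lay below the list median. Counting 1 more peak just past 10 kb, 8 peaks followed one another between 2.72 and 10.9 kb downstream of the start, through exon 2 and introns 2 to 6, with strengths of 3.56 to 4.38 and widths of 214 to 1551 bp. When only peaks whose area (Genrich's area under the curve of significance) reached 500 were counted, 4 of the 10 peaks remained, which was still more than at 96.7% of genes. The same count of 10 was reached by Meis2, a paralogue with no other start within 150 kb, which had 9.88 kb open, and 6 of its 10 peaks passed an area of 500. Of the 13 genes, 7 are on chromosome 5, and the group also holds Tfap2b, 1 of the genes deleted in EDKO. These names were looked up after the counts were seen.

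Deeper in Meis1, 5 peaks stood in intron 7, 42.9 to 74.9 kb downstream of the start, with strengths of 4.01 to 6.28. An intron 8 peak followed (4.29) and one in intron 9, 120.4 kb downstream, with 7.39, the strongest inside the gene. Beyond the 3′ end, 4 peaks were packed between 140.1 and 148 kb downstream, with strengths of 3.62 to 6.74 and a median width of 1556 bp. Upstream of the start peak, the distances ran from 3.63 to 131 kb. The 4 strongest of those 9 stood 8.22 kb (8.03), 38.0 kb (7.23), 84.3 kb (8.86) and 131 kb (7.19) away. The farthest of them is the site at which control and EDKO ectoderm differed.

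This AP-2-dependent region, chr11:19149187-19149652, lies between genes 130.5 kb upstream of Meis1, which is its nearest protein-coding start. It is 466 bp wide and fills 44.4% of the control peak chr11:19149187-19150236, which is 1050 bp wide with a strength of 7.19 (74.2nd percentile). Region and peak share their left edge and their summits stand 19 bp apart. Within the list of AP-2-dependent regions it was a weak one, with a summit −log10 p of 3.83 at the 22.5th percentile and an area at the 37.6th percentile, although its width was at the 72.8th. The 300 bp around its summit, chr11:19149342-19149641 on the plus strand, are shown with the summit and 10 bases on each side in capitals.
Meis1 upstream region: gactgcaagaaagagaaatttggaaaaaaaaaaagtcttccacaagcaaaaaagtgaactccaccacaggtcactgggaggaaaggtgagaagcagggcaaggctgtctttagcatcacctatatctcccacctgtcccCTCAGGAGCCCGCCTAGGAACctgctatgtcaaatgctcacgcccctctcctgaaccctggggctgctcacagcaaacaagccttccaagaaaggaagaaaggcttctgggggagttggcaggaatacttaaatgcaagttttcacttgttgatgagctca
None of the 6 strings searched here, GCCNNNGGC included, occurs in the 466 bp, and this says only that those letters are not in that window.

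Across the 5 genes, 1 of 93 control peaks overlapped an AP-2-dependent region, that is 1.08% (interval 0.190 to 5.84%). The share was 4.47% for all control peaks on chromosomes and 3.90% for those within 150 kb of any protein-coding start. Among the members' peaks more than 5 kb from any start it was 1 of 50 (2%, 0.354 to 10.5%) beside 5.74%. These background shares lie inside the members' intervals, so a difference from the background was not detectable with this number of peaks. By gene, 1 of 5 had such a region within 150 kb, and 28.3% of protein-coding genes did. None of the 64 peaks around Pbx2, Pbx3, Pbx4 and Meis3 overlapped one. The nearest region stood 606 kb from the Pbx2 start, 635 kb from Pbx3, 346 kb from Pbx4 and 669 kb from Meis3, while the median distance over all genes was 334 kb, with quartiles of 129 and 778 kb. The Meis1 distance of 130.5 kb thus lay at the near quartile and those of the other four beyond the median.

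Other TALE genes were read the same way. Around Meis2, Pknox1, Pknox2, Tgif1, Tgif2 and Mkx, 9 of 119 control peaks overlapped an AP-2-dependent region (7.56%, interval 4.03 to 13.8%), and 4 of the 6 genes had one. Meis2 had 4 of 34 peaks, Pknox1, which encodes the MEIS-like protein PREP1, 2 of 17, Tgif1 2 of 29 and Mkx 1 of 4, and Pknox2 and Tgif2 had none of 13 and 22. Around Wnt9b, Wnt3 and Trp63, genes that PBX proteins are known to act on in facial ectoderm, it was 11 of 65 (16.9%, 9.72 to 27.8%) and 3 of 3 genes. Wnt9b had 7 of 36 peaks and Wnt3 7 of 38, but these windows overlap and mostly hold the same sites. Trp63 had 4 of 27. The interval of the PBX pathway genes, but not that of the other TALE genes, lies above the interval of the 5 PBX and MEIS genes. These lists were chosen with earlier results of the same data known, and peaks of 1 window share a locus, so the gap is given as a description and was not tested.

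**Figure D4:**
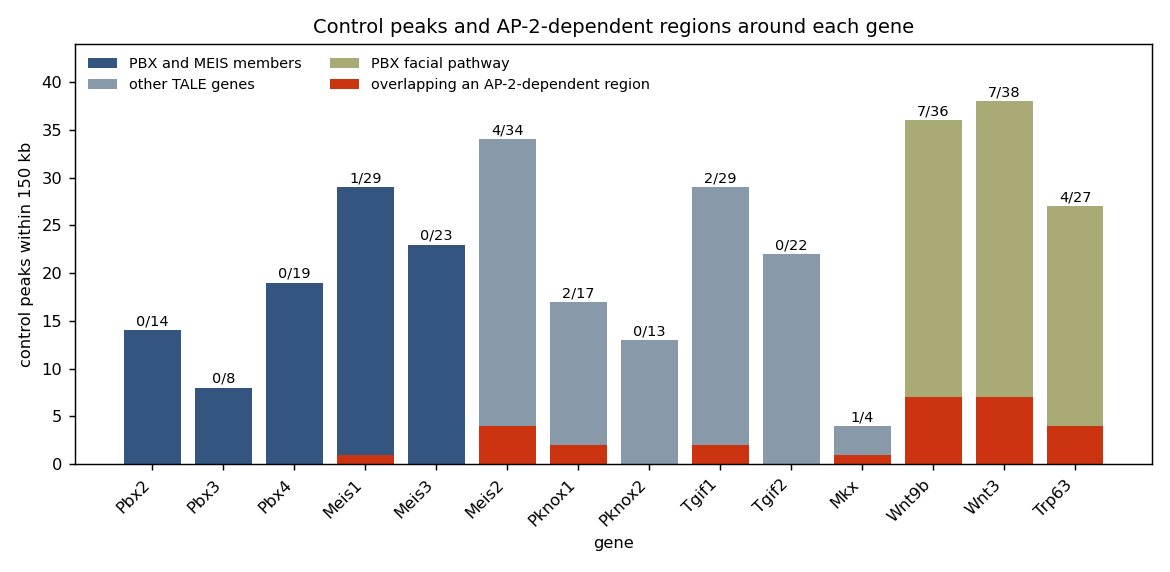
Control peaks within 150 kb of each gene (bar height) and those among them that overlap an AP-2-dependent region (red), for the 5 PBX and MEIS genes, 6 other TALE genes and 3 genes of the PBX facial pathway. The labels give overlapping over all peaks, from 0/8 at Pbx3 and 1/29 at Meis1 to 7/38 at Wnt3.

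Short consensus strings were counted on both strands up to 100 bases on either side of each summit. The composite PBX-MEIS string TGANTGACA stood in 2 of 93 windows (2.15%, interval 0.592 to 7.51%), beside 2.74% of all control peaks, and in neither case was a member gene the nearest. The MEIS string TGACAG, which is also part of many TGANTGACA matches, stood in 13 (13.98%, 8.35 to 22.5%), beside 20.1%. The PBX-HOX string TGATNNAT was found in 3 (3.23%, 1.10 to 9.06%, beside 5.48%) and the AP-2 string GCCNNNGGC in 10 (10.8%, 5.95 to 18.7%, beside 14.4%). For factors of surface ectoderm, the TEAD string GGAATG stood in 11 (11.8%, 6.73 to 19.9%, beside 17.9%) and the GRHL string AACCNGTT in 4 (4.30%, 1.69 to 10.5%, beside 3.09%). For each string taken alone, the background share fell inside the members' interval. At least 1 of the 6 strings was present in 35 of 93 windows (37.6%, interval 28.5 to 47.8%) and in 49.5% of all, above the members' interval. More than 5 kb from any start it was 19 of 50 (38%, 25.9 to 51.8%) beside 53.2%, again above the interval, and nearer to a start 16 of 43 (37.2%, 24.4 to 52.1%) beside 41.1%, inside it. At Meis1 it was 9 of 29 (31.03%, 17.3 to 49.2%). The count of windows with any of the 6 strings had not been planned. Peaks of 1 window share a locus, so these gaps are given as a description.

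**Figure D5:**
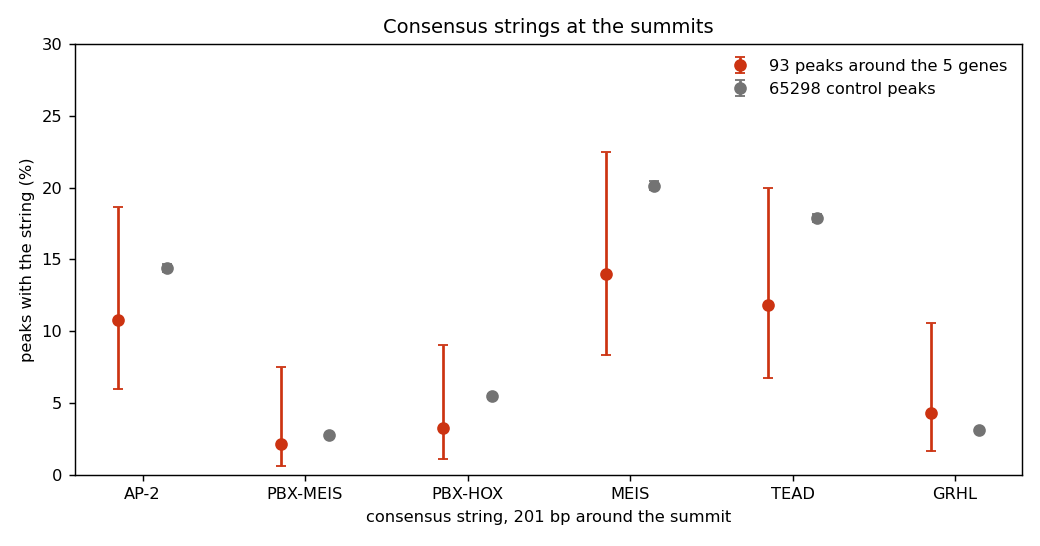
Share of windows, 100 bases on either side of the summit, that hold each consensus string (vertical axis, %), for the 93 peaks around the 5 genes (red) and for all 65298 control peaks on chromosomes (grey). Bars are 95% Wilson intervals, and every grey point lies within the red bar beside it.

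When the whole peak was searched, the PBX-MEIS string appeared in 8 of 93 peaks (8.60%, interval 4.42 to 16.1%, beside 5.78% of all). Among them were the start peaks of Meis1 and Meis3, 2 of the 5 start peaks, where 6.34% of the 12327 control peaks over any principal start held the string. With 5 peaks this is a description. Shares over whole peaks were not matched for width, and a wider peak offers more sequence to search. Median width was 792 bp for the 93 peaks, beside 560 bp for all control peaks. The window around the summit of neither start peak held the string, as the match stood 1797 bp from the summit at Meis1 and 488 bp at Meis3. Of the other 6, 4 were in the Pbx4 window.

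For the MEIS string, 2 windows held 3 copies of TGACAG each around the summit, a number reached by 216 of 65298 control peaks (0.331%). This count had not been planned. Both windows are close to member genes. One is the peak chr2:34346150-34346538 in intron 2 of Pbx3, 25.7 kb downstream of the start, of strength 4.05. The other is chr11:19030771-19031051, 11.9 kb upstream of Meis1, of strength 4.16. Both were weak, at the 24.5th and 27.9th percentile. Their windows, chr2:34346192-34346392 and chr11:19030792-19030992 on the plus strand, are printed with TGACAG or its reverse complement in capitals.
Pbx3 intron 2: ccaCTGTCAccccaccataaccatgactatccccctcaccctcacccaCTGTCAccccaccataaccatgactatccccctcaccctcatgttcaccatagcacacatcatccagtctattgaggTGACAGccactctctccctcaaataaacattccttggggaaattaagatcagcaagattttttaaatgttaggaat
Meis1 upstream: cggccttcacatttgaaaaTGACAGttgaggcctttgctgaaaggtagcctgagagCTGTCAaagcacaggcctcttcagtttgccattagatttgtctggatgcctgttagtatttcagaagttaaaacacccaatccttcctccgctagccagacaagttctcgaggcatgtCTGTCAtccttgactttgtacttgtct
In the Pbx3 window 2 of the copies sit in a stretch that repeats itself nearly letter for letter, whereas in the Meis1 window the copies stand in unlike sequence.

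The AP-2 string stood near the summit in 2 of the 5 start peaks, those of Pbx2 and Pbx3. It stood in 19.3% of all control peaks within 5 kb of a start. Neither the Pbx2 nor the Pbx3 start peak overlapped an AP-2-dependent region. Of all control peaks on chromosomes 4.47% did, and of those more than 5 kb from every start 5.74%. Among control peaks nearer to a start the share was therefore lower than 4.47%. With so few start peaks these counts are a description. At Pbx2 the match lay 87 bp downstream of the principal start and 31 bp from the summit (chr17:34592340-34592360). At Pbx3 it lay 799 bp upstream of the principal start and 13 bp from the summit (chr2:34372803-34372883). The most upstream protein-coding transcript begins 997 bp before the principal start at Pbx2 and 1098 bp before it at Pbx3. Both matches therefore lie within the gene spans given above. Both are given on the plus strand with GCCNNNGGC in capitals, the first shorter because it is untranslated exon sequence.
Pbx2 start peak: tccgccGCCGGGGGCcggggt
Pbx3 start peak: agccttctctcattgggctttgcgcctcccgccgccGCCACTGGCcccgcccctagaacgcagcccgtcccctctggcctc
Of the 10 windows with an AP-2 string, 3 lay more than 5 kb from any start, and 1 of these was in the Meis1 window, 13.8 kb upstream in a peak of strength 4.03.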

How the data were processed

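Genomic positions follow the lists, on mm10, the assembly of the GRCm38 reference used here. The authors trimmed the read pairs with NGmerge, aligned them with Bowtie2 (up to 10 placements per pair were kept) and used Genrich's ATAC-seq mode for peak calling, leaving out PCR duplicates and chrM. Each call joined both libraries of a group. The authors deposited for each peak a score capped at 1000, its area (a score as well, Genrich's area under the curve of significance), the −log10 p at the summit, unadjusted, and the summit offset. Values were used within their own list. The number of columns per sample was 0, so no library could be compared.

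With pandas 2.3.3, pysam 0.24.0 and statsmodels 0.14.6, peaks were assigned by their centres to 1 start site per protein-coding gene, that of the APPRIS principal transcript. An overlap counted from 1 bp. Scaffolds, with 169 control peaks and 31 regions, were left out of gene and sequence counts. Strings were matched on both strands. Programs were tested on simulated data. The members and lists were chosen with earlier results of these data known. Named were the 5 genes, the gene nearest to an AP-2-dependent region in each window, the nearest gene to the strongest peak of each window, the lists of other TALE, pathway, targeted and marker genes, and peaks over member starts, with a region or with a PBX-MEIS string. Other named genes (C4b, Mapkap1, Zfp963, Gmip, Tfap2b as a count) were added after their values were seen. Alternatives were other distances, start sites, strength cuts, overlaps, windows and copy number. Peaks more accessible in EDKO ectoderm, RNA-seq and H3K4me3 data were not used here, and 1 gene of the pathway list is not reported here.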

Additional observations from a re-analysis of the deposited data

How the results depend on the processing

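The 13 results were recomputed under other settings, giving 78 values, of which 74 had been planned and 4 were chosen after seeing the data. Of these values 55 stayed within the error or within 1.5 times the reported count, and 23 moved. Counting peaks only for their nearest start left 39 of the 93, with a median strength of 4.61 and a PBX-MEIS share of 0%. A limit of 100 kb left 0 AP-2-dependent regions and an overlap share of 0%, since the Meis1 site lies farther away. An area of at least 500 also left 0 regions and a share of 0% (2.45% of all such control peaks), a median strength of 7.80 and a MEIS string share of 7.69%. The share was 0% as well when 50% of both intervals had to overlap. Windows of 50 bases on either side of the summit left a PBX-MEIS share of 0% (1.49% of all peaks). Over whole peaks, not matched for width, the shares were 8.60% for the PBX-MEIS string, 47.3% for MEIS and 35.5% for AP-2, beside 5.78%, 45.4% and 32.4% of all peaks. The 1 region thus rests on the distance and the strength required. The Meis1 window kept 17 peaks with an area of at least 500, and 4 within 10 kb. The Meis3 count went from 14 at 100 kb to 38 at 250 kb, and the Pbx3 count was 5 at 100 kb. Nearest-start counts were 1 for Pbx2, 1 for Pbx4, 5 for Pbx3 and 3 for Meis3. No paired analysis was possible because the libraries that share a replicate number were combined in each call, and for the same reason no library could be left out.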

Other observations

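RefSeq promoter sequences (GRCm38.p6, 250 bases before to 50 after the start) were at hand for Pbx2, Pbx4, Meis1 and Meis3, and a control peak lay over each of the 4. The 4 promoters had GC contents of 76% at Pbx2, 66.7% at Meis3, 59.3% at Pbx4 and 58.3% at Meis1. Only that of Pbx2 held any of the 6 strings, 1 match to GCCNNNGGC, which 16.6% of 32851 promoters hold. The MEIS string, which 19.2% of promoters hold, and the PBX-MEIS string, at 1.93%, were in none of the 4, which says only that those letters are not in these windows. The GC content of the 93 windows around the summits had a median of 56.7%, beside 53.2% for all control peaks.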
